A study of Mus musculus with 12 samples.

Results

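The cytosolic ribosomal protein genes were taken as the genes whose symbol is Rps or Rpl followed by a number, with an optional a, x or l and a closing digit, together with Rpsa, Rplp0, Rplp1 and Rplp2. The rule found 85 genes among the 25611 genes counted, 33 of the small subunit and 52 of the large subunit. No measured value entered the rule. The name of each gene gives its subunit, and the list includes paralogs of ribosomal proteins as well as the proteins found in nearly every ribosome.

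The RNA came from whole livers of male C57BL/6J mice aged 8 to 10 weeks, with 4 mice in each of 3 groups. Every mouse received saline under the skin. Sham mice had an abdominal incision without ligation or puncture. CLP mice had cecal ligation and puncture, which leads to polymicrobial sepsis from the animal's own gut contents. CLP+DCA mice had the same surgery and received dichloroacetate (DCA), an inhibitor of the pyruvate dehydrogenase kinases, at 25 mg/kg into the peritoneum at 24 hr. All livers were taken at 30 hr post-surgery, 6 hr after DCA in the treated mice. The labels state an injection at 24 hr for all groups, and what the sham and CLP mice were then given is not given in the sources used here. The comparisons ask how the liver transcriptome differs in sepsis and whether DCA alters that difference. Whole liver mixes hepatocytes with immune, endothelial and other cells, and in such bulk RNA fewer cells of a type cannot be told apart from less RNA per cell.

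The cytosolic ribosome translates nuclear-encoded mRNAs. Its small subunit decodes the mRNA and its large subunit joins the amino acids, and the acidic P proteins Rplp0, Rplp1 and Rplp2 form a stalk on the large subunit that recruits the GTPase translation factors. Most of these proteins are needed in equal number per ribosome, and their mRNAs are among the most abundant of any cell. In mammals the mRNAs characteristically begin with a C and an unbroken run of pyrimidines, the 5′ terminal oligopyrimidine (TOP) motif, through which mTORC1 controls their translation.

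That feature of sequence was looked for because the counts measure mRNA level and do not see translation. RefSeq windows (GRCm38.p6) of 300 bases, 250 before and 50 after an annotated start, were found for 64 of the 85 genes. On the sense strand, a C followed by at least 4 pyrimidines stood exactly at an annotated start in 14 of the 64 genes, 21.9%, against 3.01% of the 27025 genes with a window. A run of at least 7 pyrimidines that opened with a C was found between 30 bases before and 50 bases after a start in 50 of the 64, 78.1%, against 37% of all genes. Among tested members the median log2 fold change of CLP versus sham was 0.003 for the 46 with such a run and 0.02 for the 13 without one, so that the medians were close to each other. Below are the runs of 7 members with a run that stood near the ends of the CLP versus sham order, with the run in capitals and up to 30 bases of context. They are read 5′ to 3′ on the strand of the gene.
Rps27l: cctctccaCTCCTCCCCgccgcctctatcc
Rps2: aaattgtcccttccgcggcgCCTCCCTCTT
Rpl7a: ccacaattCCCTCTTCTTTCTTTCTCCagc
Rpl41: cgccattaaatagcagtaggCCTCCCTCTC
Rpl22l1: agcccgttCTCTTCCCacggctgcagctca
Rps12: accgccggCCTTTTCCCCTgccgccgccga
Rplp2: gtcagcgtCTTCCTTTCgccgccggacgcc

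The window of Rps27l lies at chr9:66946066-66946095, that of Rps2 at chr17:24720083-24720112 and that of Rpl7a at chr2:26910787-26910816, all on the plus strand. Those of Rpl22l1 at chr3:28805503-28805532 and Rplp2 at chr7:141447639-141447668 are on the plus strand as well. The windows of Rpl41 at chr10:128549119-128549148 and Rps12 at chr10:23787180-23787209 are on the minus strand. Relative to the annotated start, with bases before it negative, the runs began at -12 for Rps27l and Rpl7a and at -4 for Rplp2. They began at 4 for Rpl22l1, 9 for Rps12 and 41 for Rps2 and Rpl41. No run printed here began exactly at that start. The run of Rplp2 spans the start, and from there on it reads a C followed by 4 pyrimidines, which meets the exact criterion above. The longest run of each gene is printed, so where it begins does not show whether a TOP motif stands at the start. The runs are thus not shown to be TOP motifs. The runs of Rps2 and Rpl41 reach the end of the window and may go on beyond it. These 7 were picked from the members with a run. Rpl22, Rps28 and Rplp0, also near the ends of the order, had a window without such a run.

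The counted reads ranged from about 24436500 to about 44266800 per mouse. Of the 85 members, 80 passed the filter on low counts, all 33 of the small and 47 of the large subunit, out of 13190 genes tested. Levels are given as CPM, read counts scaled to a common library size by TMM normalization. The liver label held, since 7 hepatocyte markers, albumin among them, summed to 66810 to 85710 CPM for sham, 32967 to 50802 CPM for CLP and 28985 to 61276 CPM for CLP+DCA mice, and 1 of the 7 was called lower in CLP. Of 8 neutrophil markers, 7 were tested and 1 was called higher in CLP. The sum of the 8 was 6.39 to 9.11 CPM for sham and 28.6 to 36.9 CPM for CLP mice. For CLP+DCA mice 1 to 4 it was 6.44, 13.7, 45.4 and 6.87 CPM. The sum of 4 cholangiocyte markers was 6.16 to 10.1 CPM for sham and 16.5 to 54.0 CPM for CLP mice, and that of 9 lymphocyte markers, of which 3 were tested, was 2.03 to 4.14 and 0.538 to 1.59 CPM, with 0 called in either list. The part of these cells in the results on ribosomal protein genes was not tested. A pair of libraries stood apart. CLP mouse 3 held transcripts of skeletal muscle: 12 muscle genes, chosen after their values were seen, took 0.259% of its reads and at most 0.000642% of those of any other mouse. CLP+DCA mouse 3 had 36.6% of its reads on acute phase genes, where the other CLP+DCA mice had 17.5% to 21.5% and CLP mice 22.8% to 37.7%. Calls of members that changed without either mouse are given with and without it.

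Members took a small and steady share of the reads. In sham they held 1.43%, 1.39%, 1.63% and 1.39% of the counted reads of mice 1 to 4. In CLP the shares were 1.25%, 1.32%, 1.46% and 1.2%, and in CLP+DCA 1.5%, 1.6%, 1.43% and 1.19%. The group means were 1.46% ± 0.113 (SD, n = 4), 1.31% ± 0.113 and 1.43% ± 0.173, and the 3 groups overlapped. The acute phase genes, secreted liver proteins such as serum amyloid A and haptoglobin, held 13.4% to 15.8% of all reads of the sham mice and 22.8% to 37.7% of those of the CLP mice. With those genes left out of the total the order of the means turned, and members held 1.70% ± 0.117 for sham, 1.89% ± 0.169 for CLP and 1.89% ± 0.341 for CLP+DCA, again with overlap. Which total is taken thus set the sign of the difference between sham and CLP.

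The balance between the subunits hardly varied. Of the member reads, small subunit genes held 41.8% to 42.0% for sham, 41.9% to 42.1% for CLP and 41.3% to 42.1% for CLP+DCA mice. The mean log2 ratio of small to large subunit reads was -0.47 in both sham and CLP and -0.48 in CLP+DCA. This ratio is formed within each library and does not depend on how libraries are scaled.

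**Figure D1:**
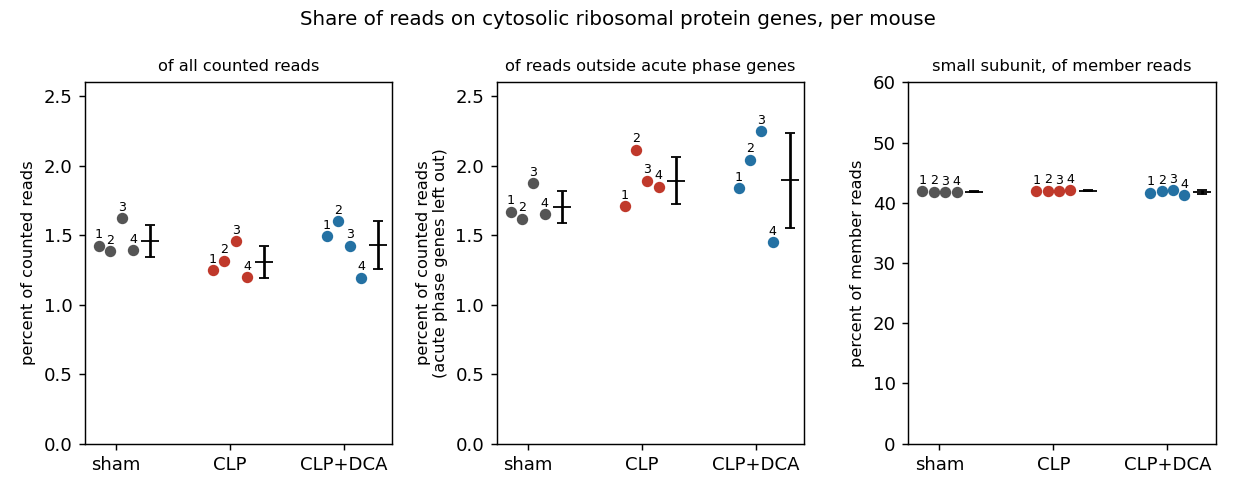
Percent of counted reads on the 85 members (left), the same with acute phase genes left out of the total (middle), and percent of member reads on small subunit genes (right). Each numbered point is a mouse and each bar is the mean ± SD of 4 mice. CLP lies lowest on the left (1.31%) and above sham in the middle (1.89% against 1.70%), while all 12 mice lie between 41.3% and 42.1% on the right.

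Members moved together from mouse to mouse within a group. In sham mouse 3, 78 of the 80 tested members were above their own sham mean of log2 CPM, while in sham mouse 2 only 2 were. In CLP the numbers were 3 in mouse 1, 74 in mouse 2, 41 in mouse 3 and 33 in mouse 4. CLP+DCA mice ranged from 3 members in mouse 4 to 76 in mouse 2. Over all genes tested, between 49.0% and 51.9% lay above their group mean in each mouse of these groups. TMM normalization centres most genes in each library and so largely sets these percentages. Whether other sets of genes move together as much was not tested. The median member of CLP+DCA mouse 4 lay 0.25 below the sham mean on the log2 scale, the lowest of the 12, and the median member of sham mouse 3 lay 0.14 above it.

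**Figure D2:**
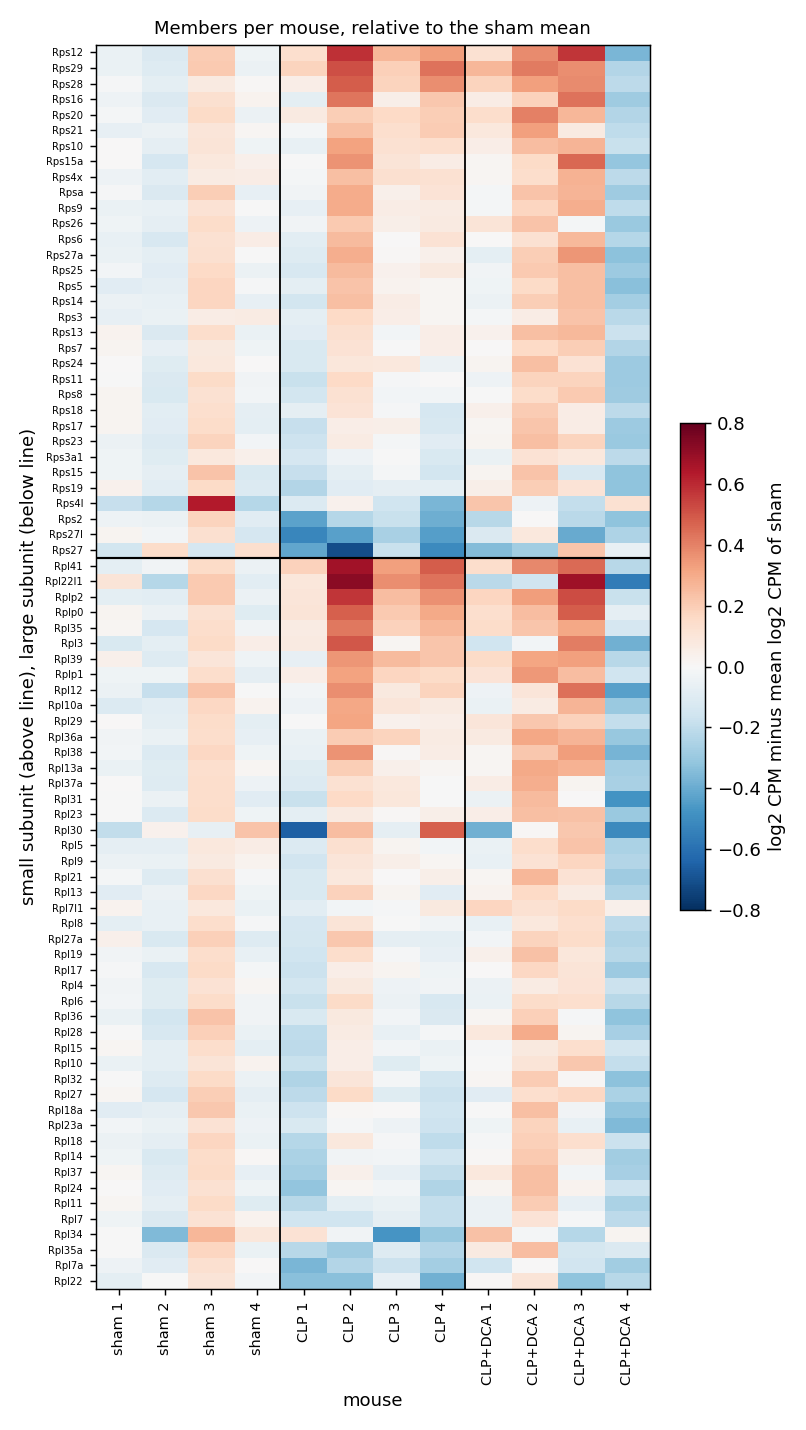
Log2 CPM of the 80 tested members minus the mean of the 4 sham mice (colour), by mouse (columns) and gene (rows), with small subunit genes above the line and large subunit genes below it, each ordered by the CLP versus sham change. Whole columns are red or blue, such as CLP+DCA mouse 4 (median -0.25) and sham mouse 3 (median 0.14), while rows at the top and bottom of each block differ from the rest in the CLP columns.

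In CLP versus sham, no member passed the test, and no member differed by more than 0.5 on the log2 scale. edgeR's quasi-likelihood test with Benjamini-Hochberg adjustment at 0.05 called 0 of the 80, against a background of 2.78% of all genes tested, 1.64% higher and 1.14% lower. At an unadjusted p under 0.05 it gave 6 members, 2 higher and 4 lower in CLP, where 28.6% of all genes were so. Values of the 4 CLP mice lay wholly above or below those of the 4 sham mice for 5 of 80 members, 6.25%, against 26.5% of all genes. Of the 5, 1 was higher and 4 were lower in CLP, where 12.2% and 14.2% of all genes were. Among the 76 members of mean CPM 20 or more, 1 was higher and 3 were lower, 5.26%. The remaining lower member was Rps27, which had 8 to 30 reads per mouse and an uncertain level. The count of calls depended on the fit. DESeq2 on the 8 mice compared called 8 of 81 members, 9.88%, where it called 23.3% of all genes, and edgeR on these 8 mice called 2 of 81, 2.47%, where it called 18.3%. DESeq2 on all 12 mice called 3 of 81, 3.7%, where it called 13% of all genes. Without CLP+DCA mouse 3, edgeR called Rpl41 and Rps27l and 23.8% of all genes, and without CLP mouse 3 it called Rps27l and 7.46% of all genes.

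The typical member lay close to 0. The median log2 fold change of CLP versus sham was 0.003 over the 80 members, 0.05 over the small subunit and -0.02 over the large subunit, beside 0.02 over all genes tested. In the small subunit 21 genes were above 0 and 12 below, and in the large subunit 22 and 25. While no member differed by more than 0.5, 25.7% of all genes tested did. So did 5.56% of translation factors, 2.47% of ribosome biogenesis genes and 10.3% of mitochondrial ribosomal genes. The 95% interval of the fold change lay within 1.5-fold of no change for 70 of the 80 members, 87.5%, against 44.1% of all genes, and within 2-fold for all 80. Within 1.5-fold were also 88.9% of translation factors, 75.3% of ribosome biogenesis genes and 59.0% of mitochondrial ribosomal genes. The median SE was 0.121 for the members and 0.175 for all genes.

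The medians followed the scaling. Scaled by library size alone, the median of the small subunit was -0.14 and that of the large subunit -0.19, and that of all genes -0.16. Scaled by library size without the acute phase genes, the medians were 0.17 and 0.11, and that of all genes 0.15. The medians of both subunits thus moved with that of all genes.

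**Figure D3:**
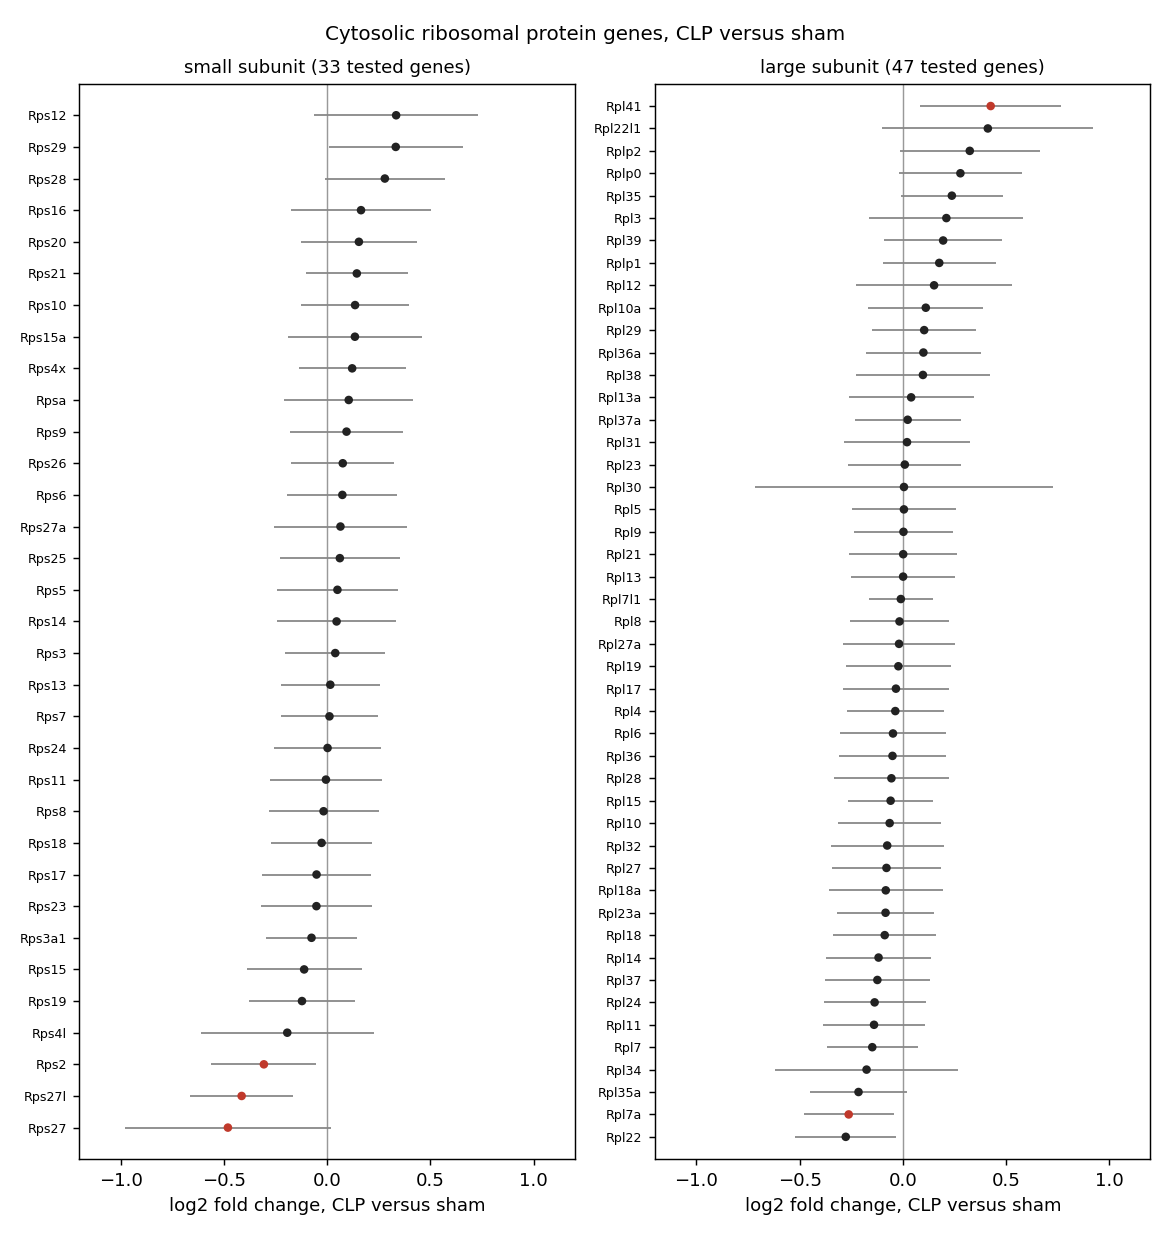
Log2 fold change of CLP versus sham (x axis) with its 95% interval for each tested small subunit gene (left, 33) and large subunit gene (right, 47). Red points are the 5 genes whose CLP and sham mice do not overlap. The points run from -0.48 for Rps27 to 0.43 for Rpl41.

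At the lower end of the small subunit stood Rps27l, a paralog of Rps27 and a known target of p53. Its level was 118, 114, 127 and 106 CPM in sham, 80.7, 85.9, 97.1 and 85.6 CPM in CLP, and 107, 123, 88.0 and 98.1 CPM in CLP+DCA. All CLP mice were below all sham mice, and the CLP+DCA mice spread over both. The log2 fold change of CLP versus sham was -0.41 (SE 0.114, edgeR adjusted p = 0.0651). Among the other settings of normalization, filter, samples and test it ran from -0.59 to -0.29, and 5 of 20 settings gave an adjusted p under 0.05. The adjusted p was 0.0453 without CLP mouse 3, 0.0135 without CLP+DCA mouse 3 and 0.000338 in DESeq2 on the 8 mice compared.

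Rps2 is a protein of the mRNA entry side of the small subunit. In sham it was the most abundant small subunit mRNA per length, with 460, 457, 536 and 443 CPM. It had 351, 404, 417 and 361 CPM in CLP and 405, 473, 407 and 378 CPM in CLP+DCA. Sham and CLP did not overlap. The log2 fold change was -0.31 (SE 0.116, edgeR adjusted p = 0.118), and the adjusted p was 0.0154 in DESeq2 on the 8 mice. Rpl7a, a large subunit protein, had 287, 277, 322 and 295 CPM in sham, 229, 251, 261 and 244 CPM in CLP, and 264, 296, 265 and 243 CPM in CLP+DCA. Again every CLP mouse lay below every sham mouse, with a log2 fold change of -0.26 (SE 0.1, edgeR adjusted p = 0.12). In DESeq2 on the 8 mice, Rpl7a had an adjusted p of 0.00907.

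At the upper end stood Rpl41, which encodes the smallest protein of the ribosome. Its levels were 175, 181, 206 and 179 CPM in sham, 210, 295, 233 and 258 CPM in CLP, and 204, 241, 253 and 158 CPM in CLP+DCA. CLP lay above sham without overlap, although its lowest mouse came close to the highest sham mouse. The log2 fold change was 0.43 (SE 0.156, edgeR adjusted p = 0.110), and 3 of 20 other settings gave an adjusted p under 0.05. It was 0.0485 without CLP+DCA mouse 3 and 0.00814 in DESeq2 on the 8 mice. Rps12, Rps29 and Rps28 had the highest log2 fold changes of the small subunit, 0.33, 0.33 and 0.28, with edgeR adjusted p-values of 0.237, 0.167 and 0.188, and sham and CLP overlapped for each. In DESeq2 on the 8 mice, Rps12 (adjusted p = 0.0457) and Rps29 (adjusted p = 0.0407) passed and Rps28 (adjusted p = 0.0672) did not. For Rps12 the levels were 163, 156, 194 and 165 CPM in sham and 186, 253, 203 and 213 CPM in CLP.

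The 3 genes of the P stalk shared one direction. Rplp0, its base, had 438, 417, 469 and 403 CPM in sham, 463, 602, 498 and 533 CPM in CLP, and 473, 511, 603 and 410 CPM in CLP+DCA. The log2 fold change of CLP versus sham was 0.28 (SE 0.137, edgeR adjusted p = 0.199), that of Rplp1 was 0.18 (adjusted p = 0.349) and that of Rplp2 was 0.32 (adjusted p = 0.19). Sham and CLP overlapped for each of the 3, and only Rplp0 passed in DESeq2 on the 8 mice (adjusted p = 0.04996). With library size alone the log2 fold changes were 0.09 for Rplp0, 0.14 for Rplp2 and -0.003 for Rplp1. The sign of Rplp1 thus depended on the scaling, and the median of all genes was -0.16 under library size alone. As shares of the member reads, which do not depend on scaling, all 3 genes were higher in CLP without overlap. Rplp1 held 2.21% in sham and 2.46% in CLP, and Rplp2 held 0.952% and 1.17%. These shares were not tested. By share of the member reads, 16 of the 80 tested members were higher and 15 lower without overlap, 38.75%, so this does not set the 3 genes apart. Of all genes divided in the same way 21.7% did not overlap, which is not a like background, and no conclusion is drawn.

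**Figure D4:**
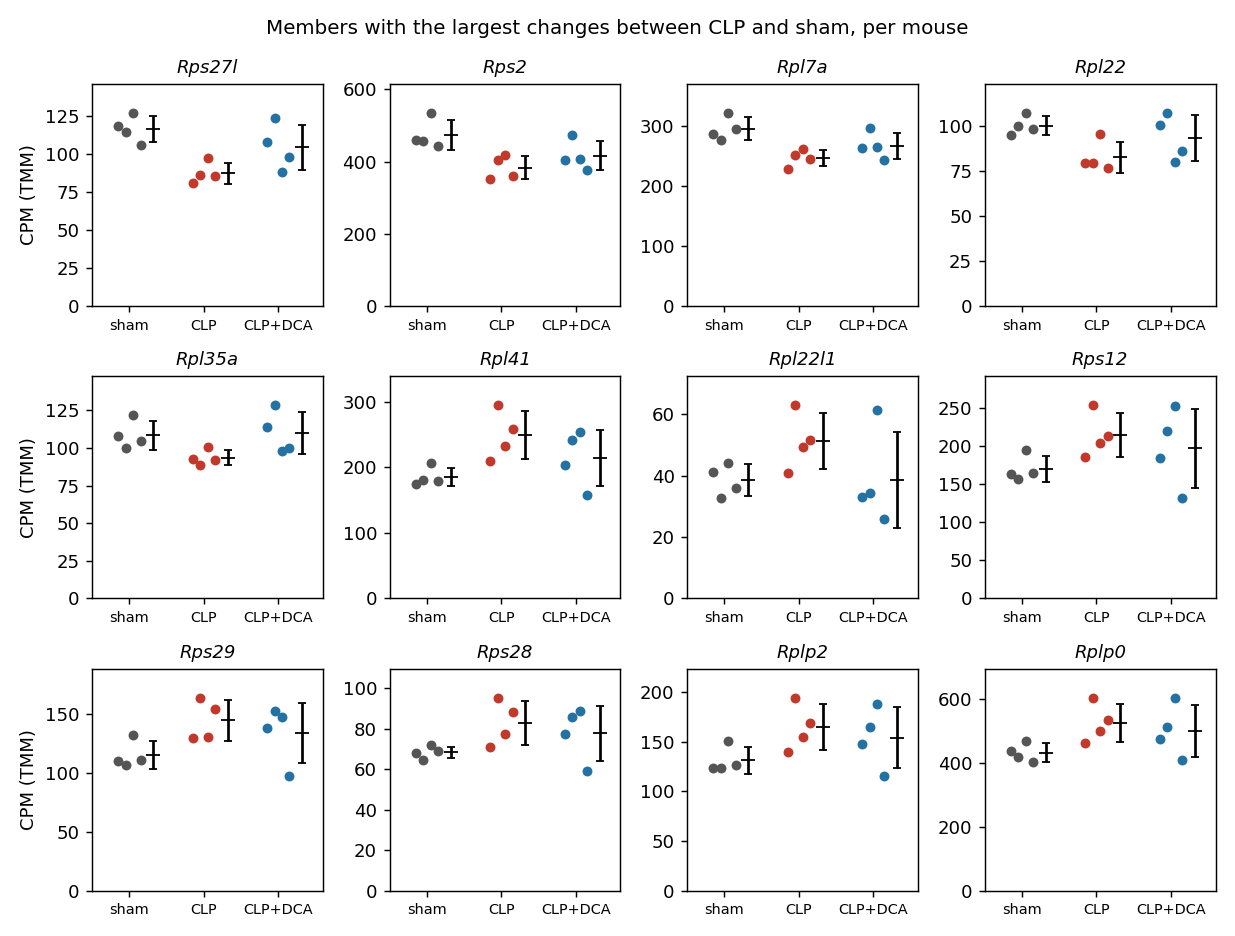
CPM after TMM normalization (y axis, from 0) of 12 members in each mouse, by group, with the mean ± SD of 4 mice beside the points. Rps27l, Rps2 and Rpl7a are lower in every CLP mouse than in any sham mouse, and Rpl41 is higher. The CLP+DCA mice spread widely for Rpl22l1, from 25.9 to 61.3 CPM.

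Of 4 members known for roles beside translation, Rps6 and Rpl5 were near to 0. The log2 fold change of CLP versus sham was 0.10 for Rpsa and -0.14 for Rpl11. Rps6, which is phosphorylated downstream of mTORC1, had 157 ± 12.1 CPM (SD, n = 4) in sham and 165 ± 16.6 in CLP (log2 fold change 0.07, edgeR adjusted p = 0.703). Rpl5 and Rpl11 bind Mdm2 together with 5S rRNA when ribosome assembly is disturbed. Rpl5 had 168 ± 9.51 CPM in sham and 169 ± 11.9 in CLP, and Rpl11 had 190 ± 15.3 and 173 ± 9.76 CPM. Rpsa, which also serves as a laminin receptor, had 413 ± 40.7 and 444 ± 43.8 CPM. None of these 4 passed the test, and the interval of each held 0.

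The paralog pair Rpl22 and Rpl22l1 lay on opposite sides of 0. Rpl22 is known to repress the expression of Rpl22l1, which can take its place in the ribosome. Rpl22 had 95, 100, 108 and 98.7 CPM in sham, 79.6, 79.6, 95.6 and 76.6 CPM in CLP, and 101, 108, 80.0 and 86.0 CPM in CLP+DCA. Rpl22l1 had 41.0, 32.7, 44.3 and 36.0 CPM in sham, 40.8, 63.0, 49.5 and 51.8 CPM in CLP, and 33.0, 34.3, 61.3 and 25.9 CPM in CLP+DCA. Neither passed in edgeR (log2 fold changes -0.28 and 0.41, adjusted p = 0.136 and 0.254), and sham and CLP overlapped for both. Rpl22 passed in DESeq2 on the 8 mice (adjusted p = 0.0250). CLP mouse 3 was the highest of the CLP mice for Rpl22, whose log2 fold change was -0.35 without it.

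Within each library the reads on Rpl22l1 were compared with those on Rpl22, which removes the scaling. They came to 43.2%, 32.7%, 41.2% and 36.5% in sham and to 51.3%, 79.2%, 51.8% and 67.6% in CLP. In CLP+DCA they came to 32.7%, 31.9%, 76.5% and 30.1%. The CLP mice lay above the sham mice without overlap, while 3 CLP+DCA mice lay between 30.1% and 32.7%, near the lowest sham mouse, and CLP+DCA mouse 3 lay among the CLP mice. The pair was chosen with its values known and the ratio was not tested. Without CLP+DCA mouse 3, Rpl22l1 was the only member called in CLP+DCA versus CLP, with a log2 fold change of -0.72 (edgeR adjusted p = 0.0318), where 4.64% of all genes were called. With that mouse it was -0.41 (edgeR adjusted p = 0.588).

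The coding sequences of this pair are shown because reads of near-identical copies could be exchanged in counting. Over 369 aligned bases 70.2% were identical, with no identical run longer than 26 bases, while reads were 100 bp long. The stretch of coding bases 157 to 276 of Rpl22l1 and 175 to 294 of Rpl22, as GENCODE M21 gives them (GRCm38), shows 33 differences, in capitals.
Rpl22l1: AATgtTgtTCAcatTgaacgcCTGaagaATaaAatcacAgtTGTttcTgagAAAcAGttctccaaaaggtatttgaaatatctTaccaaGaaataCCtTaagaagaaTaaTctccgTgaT
Rpl22: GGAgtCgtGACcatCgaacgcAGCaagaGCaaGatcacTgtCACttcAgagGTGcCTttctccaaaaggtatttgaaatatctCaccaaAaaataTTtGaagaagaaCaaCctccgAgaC

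Rpl3l, the paralog of Rpl3 found in heart and skeletal muscle, had 362 reads in CLP mouse 3 and between 2 and 7 reads in each of the other 11 mice. The same mouse had 27929 reads on Acta1, 14485 on Myh1 and 7176 on Ckm, the actin, a myosin heavy chain and the creatine kinase of skeletal muscle, where the highest of the other mice had 13, 10 and 4. Rpl3l did not pass the filter and was not compared between groups. Rpl3 itself had 248 CPM in CLP mouse 3 and 257, 346 and 286 CPM in the other CLP mice. The coding sequences of Rpl3l and Rpl3 were 74.3% identical with no identical run longer than 22 bases, and their first 120 bases differ at the 31 positions in capitals.
Rpl3l: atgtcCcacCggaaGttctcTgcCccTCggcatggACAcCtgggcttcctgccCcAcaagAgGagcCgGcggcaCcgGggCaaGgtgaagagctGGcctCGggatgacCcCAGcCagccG
Rpl3: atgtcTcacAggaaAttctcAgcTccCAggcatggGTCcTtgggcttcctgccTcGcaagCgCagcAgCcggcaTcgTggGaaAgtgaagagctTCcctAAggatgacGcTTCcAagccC

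Among the other paralogs, Rpl10l, which serves in the testis, had 0 reads in all 12 mice, and Rpl39l, also of the testis, had at most 3. Rpl7l1, which acts in large subunit assembly, had 65.5 ± 3.21 CPM (SD, n = 4) for sham, 65.1 ± 3.03 for CLP and 71.3 ± 2.87 for CLP+DCA mice. Its log2 fold change was -0.01 (95% interval -0.17 to 0.15) in CLP versus sham. Rps4l, a transcribed pseudogene in RefSeq, lies wholly within Tmtc1 on the opposite strand. The strand setting of the counting is not given in the sources used here, and the part of Tmtc1 in the reads of Rps4l was not tested. Rps4l had 21.2 CPM in sham mouse 3 and 10.6 to 15.9 CPM in the other 11 mice. Its log2 fold change of CLP versus sham was -0.19 (edgeR adjusted p = 0.508) and turned to 0.07 without sham mouse 3. The partners Rpl7, Rps4x, Rpl10 and Rpl39, which are proteins of the common ribosome, had log2 fold changes of -0.15, 0.12, -0.06 and 0.20 in CLP versus sham, and none passed the test. Rpl32l fits the naming rule and lies within Map7 on the same strand, and its 4 to 20 reads per mouse cannot be told apart from those of Map7.

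A few of the 77 members that are not paralogs or like genes had almost no reads. Rpl26 had 0 reads in every mouse, Rpl30 had 9 to 19, Rps27 had 8 to 30 and Rpl34 had 28 to 74, while each of the other 73 had at least 1354. Of these 77, the same 4 were the only members with a second gene of the count table lying over at least 90% of their locus on the same strand, namely Gm15772 over Rpl26, Gm12191 over Rpl30, Rpl34-ps1 over Rpl34 and Rps27rt over Rps27. Each of these second genes had 0 reads in all 12 mice. How reads that lie on both genes were counted is not given in the sources used here, so that the levels of these 4 members, and the log2 fold change of -0.48 of Rps27, are uncertain. Within their loci, 22 members hold snoRNA genes, 32 in all.

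Rps27 and Rps27l encode nearly the same protein from unlike coding sequences. Their coding sequences of 255 bases differ at 61 positions, in capitals below, are 76.1% identical and share no run longer than 11 bases.
Rps27l: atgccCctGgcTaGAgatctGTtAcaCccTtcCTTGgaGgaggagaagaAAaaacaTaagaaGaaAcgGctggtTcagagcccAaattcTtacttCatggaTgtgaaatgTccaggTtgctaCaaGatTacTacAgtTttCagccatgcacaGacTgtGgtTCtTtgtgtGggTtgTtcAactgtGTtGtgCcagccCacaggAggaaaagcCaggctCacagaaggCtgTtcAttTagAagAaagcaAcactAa
Rps27: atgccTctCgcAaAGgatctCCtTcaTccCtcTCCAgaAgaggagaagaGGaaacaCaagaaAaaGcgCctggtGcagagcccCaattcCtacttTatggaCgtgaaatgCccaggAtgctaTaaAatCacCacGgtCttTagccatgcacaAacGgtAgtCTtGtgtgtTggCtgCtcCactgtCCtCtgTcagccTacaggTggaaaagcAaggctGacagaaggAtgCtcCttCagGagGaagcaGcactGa

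Levels per length could be compared between genes, as RPKM, the CPM divided by length in kilobases, on the median length of the principal GENCODE transcripts. In sham, the 30 small subunit genes without a second gene over them and outside the paralogs had a median of 248 RPKM, and the 43 such large subunit genes a median of 188 RPKM. Rps2 was highest in the small subunit with 453 RPKM and Rplp1 in the large subunit with 611 RPKM. The lowest tested of each subunit were Rps27 with 1.94 RPKM and Rpl30 with 0.600 RPKM, both among the 4 covered by a second gene. Genes with long alternative transcripts move in this order with the transcript taken, while these 4 ends stayed the same with the shortest or the longest. The part of reads that align to several genes in this order was not tested.

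Seen as shares of the member reads, the groups were apart for more members than in CPM. Of the 80 tested members, 16 held a larger and 15 a smaller share in all CLP mice than in all sham mice, 38.75%, where 21.7% of all genes divided in the same way did not overlap. Taking shares removes the movement that members have in common in a mouse, but brings that movement into the values of other genes. The percentage of all genes is therefore not a like background for the members, and no conclusion is drawn from the difference. The count is a description of these 8 mice. Rplp0 held 3.14% ± 0.123 (SD, n = 4) of the member reads in sham and 3.74% ± 0.165 in CLP, and Rpl41 held 1.35% ± 0.0434 and 1.77% ± 0.136. Rps2 had 3.44% ± 0.118 in sham and 2.74% ± 0.174 in CLP. The 10 members with most reads held 27.2% to 28.5% of the member reads in each of the 12 mice.

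In CLP+DCA versus CLP, no member passed and no group of 4 stood clear of the other. edgeR called 0 of 80 members, against 0.00758% of all genes (1 of 13190, which was higher), and DESeq2 on these 8 mice called 0 of 81, against 0.604%. At an unadjusted p under 0.05, 2 members were higher in CLP+DCA, where 10% of all genes were past it. These were Rps27l, with a log2 fold change of 0.25 (SE 0.114, edgeR adjusted p = 0.497), and Rpl35a, with 0.23 (SE 0.107, edgeR adjusted p = 0.497). Rpl35a had 108, 99.7, 122 and 104 CPM in sham, 92.6, 88.9, 101 and 92.1 CPM in CLP, and 114, 128, 98.3 and 99.7 CPM in CLP+DCA. For all 80 members the groups overlapped, whereas they did not for 4.37% of all genes, 2.32% higher and 2.05% lower. The median log2 fold change was 0.03 over the members, -0.01 over the small and 0.04 over the large subunit, and the 95% interval lay within 1.5-fold for 74 of the 80.

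In CLP+DCA versus sham, edgeR called 0 of 80 members, against 0.0379% of all genes (0.0303% higher and 0.00758% lower), and DESeq2 on these 8 mice called 0 of 82, against 1.2%. No member had an unadjusted p under 0.05, where 13% of all genes did, although 7 had one without CLP+DCA mouse 4. By CPM, no member was without overlap, where 9.76% of all genes were, 4.78% higher and 4.97% lower. The medians of the log2 fold change were 0.04 over the small and 0.02 over the large subunit. The intervals of 77 of the 80 lay within 1.5-fold of no change. Each pair of the 3 comparisons shares the 4 mice of a group, so that their values are not independent.

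Other parts of the translation machinery were set beside the members. In CLP versus sham, 0 of 54 translation factors were called, with a median log2 fold change of -0.10, 3 higher and 10 lower at an unadjusted p under 0.05, where 28.6% of all genes were past it. DESeq2 on the 8 mice called 9, where it called 23.3% of all genes, and edgeR without CLP+DCA mouse 3 called 8, where it called 23.8%. Those with the smallest p were Eif2a, an initiation factor (log2 fold change -0.25, edgeR adjusted p = 0.068), Eif1a, which acts in start codon selection (0.95, adjusted p = 0.0756), and Dhx29, a helicase of initiation (0.30, adjusted p = 0.0784). Of 81 ribosome biogenesis genes 1 was lower and 0 higher, where 1.14% and 1.64% of all genes were, with a median of -0.03. Without CLP+DCA mouse 3, 19 were called, where 23.8% of all genes were, and without sham mouse 1, 0 were, where 0.0899% of all genes were. The call was Npm1, a nucleolar chaperone whose mRNA is itself of the TOP type, with 98.3, 91.3, 104 and 113 CPM in sham, 71.9, 65.1, 88.9 and 65.1 CPM in CLP, and 90.8, 95.6, 96.8 and 97.5 CPM in CLP+DCA. All CLP mice were below all sham mice, with a log2 fold change of -0.48 (SE 0.112, edgeR adjusted p = 0.0474), and 7 of 20 other settings called it. Rrs1, an assembly factor of the large subunit, had 0.47 (edgeR adjusted p = 0.0642), and Sbds, which readies the large subunit for translation, had -0.39 (adjusted p = 0.0644). Of 21 other TOP mRNAs 1 was lower, again Npm1, with a median of -0.16.

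Of 24 genes of the mTORC1 and MYC pathways 0 were called, with 0 higher and 4 lower at an unadjusted p under 0.05, and a median of -0.003. Past that p were 28.6% of all genes. DESeq2 on the 8 mice called 3, where it called 23.3% of all genes, and edgeR without CLP+DCA mouse 3 called 2, where it called 23.8%. Mxi1, an antagonist of MYC, had the smallest p (log2 fold change -0.28, edgeR adjusted p = 0.0661). Deptor, an inhibitor of mTOR, had -0.61 (edgeR adjusted p = 0.0863) and Rheb, the GTPase that activates mTORC1, had -0.22 (adjusted p = 0.131).

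The ribosomal proteins of mitochondria, which build the separate ribosome that translates mitochondrial mRNAs, were set beside those of the cytosol. Of 78 tested 5 were lower and 0 higher in CLP, where 1.14% and 1.64% of all genes were, and 37 were lower without overlap, where 14.2% of all genes were. Their median log2 fold change was -0.25, with 70 of 78 below 0. The 5 that were lower, named after their values were seen, were Mrpl9 (-0.63, edgeR adjusted p = 0.0403), Mrps31 (-0.42, adjusted p = 0.0412), Mrpl47 (-0.55, adjusted p = 0.0462), Mrps30 (-0.43, adjusted p = 0.0474) and Mrps22 (-0.50, adjusted p = 0.0491). Between 0 and 30 of these genes were called when 1 mouse was left out, 30 without CLP+DCA mouse 3, where 23.8% of all genes were called, and 0 without sham mouse 1, where 0.0899% were. The difference between the lists was not tested.

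**Figure D5:**
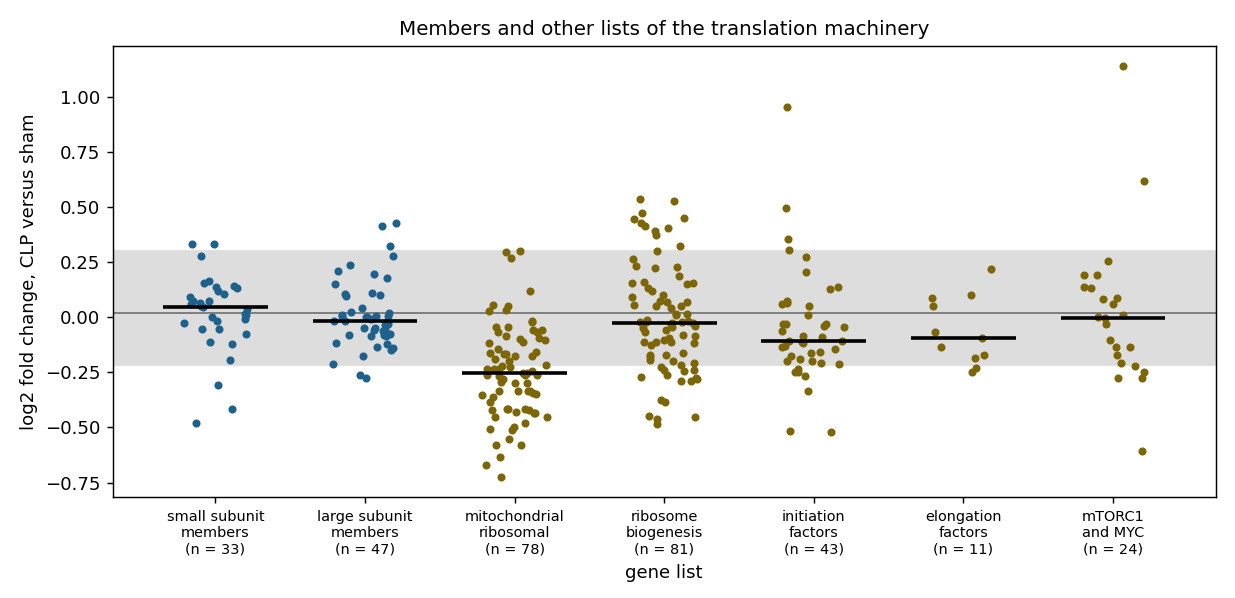
Log2 fold change of CLP versus sham (y axis) of each tested gene (points) in 7 lists, with the list median (black bar), the median of all genes tested (grey line) and their middle 50% (grey band). The medians are 0.05 and -0.02 for the small and large subunit and -0.25 for the mitochondrial ribosomal genes.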

How the data were processed

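Polyadenylated RNA of 12 whole livers was sequenced as paired-end reads of 100 bp. Per the submitters' notes and the study's methods, the authors aligned reads with STAR 2.5 to mm10 and deposited raw counts per gene from featureCounts (Subread 1.5.0-p1). The annotation, strand setting and treatment of reads on overlapping genes are not given in the sources used here. Counts were used as deposited. Genes passed edgeR's filter at a minimum count of 10, libraries were scaled by TMM, and all 12 libraries entered one quasi-likelihood fit (edgeR 4.0.16, R 4.3.3) with Benjamini-Hochberg adjustment over all genes tested at 0.05. The fit was tested on simulated data. Alternatives were DESeq2 1.42.0, other scalings, no filter, the 8 libraries compared, a replicate block and leaving out each library. Differences of single mice in log2 CPM used a prior count of 2. Transcripts came from GENCODE M21 and start sites from RefSeq (GRCm38.p6). Genes were named as the 3 highest and 3 lowest log2 fold changes of each subunit in CLP versus sham, the called members, the paralogs with their partners, members of known added roles, those below the filter, the ends of the order per length, and the 3 smallest p of the translation, biogenesis and mTORC1 lists. Members and lists were chosen with earlier results of these data known. The study states 4 mice per group, and p-values measure the spread between them.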

Additional observations from a re-analysis of the deposited data

Results flagged for a closer look

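Within groups of 4, a mouse stood far from the other 3, by Dixon's test at the 95% level, in 5 of 81 sets of values checked, and chance alone gives about 1 in 20. In sham mouse 3, Rplp2 had 151 CPM where the other sham mice had 123 to 127 CPM. Rps29 had 132 CPM in that mouse and 106 to 110 CPM in the others, and Rps4l had 21.2 CPM against 11.6 to 12 CPM. The share of reads on all members was 1.63% in sham mouse 3 and 1.39% to 1.43% in the other sham mice. In CLP mouse 3, which held the muscle transcripts, Rpl22 had 95.6 CPM where the other CLP mice had 76.6 to 79.6 CPM.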

How the results depend on the processing

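In CLP versus sham, DESeq2 on all 12 libraries called 0 members higher and 3 lower, 6 translation factors, 11 biogenesis, 2 mTORC1 and MYC and 16 mitochondrial ribosomal genes. DESeq2 on the 8 libraries compared called 4 members higher and 4 lower, and 9, 19, 3 and 32 genes of those lists. edgeR on these 8 libraries called 1 member higher and 1 lower, and 5, 13, 2 and 28. Library size alone gave medians of -0.14 (small subunit) and -0.19 (large subunit), with 1 translation factor, 0 biogenesis and 1 mitochondrial gene called, and medians of 0.11 and 0.15 in CLP+DCA versus CLP. Without acute phase genes in the library size the medians were 0.17 and 0.11 in CLP versus sham and 0.16 and 0.13 in CLP+DCA versus sham, with 2 biogenesis genes and 1 mitochondrial gene called, and the shares of reads were 1.70%, 1.89% and 1.89%. With no filter, and with scaling to the summed members, a setting chosen after seeing the data, 0 biogenesis and 0 mitochondrial genes were called. RLE normalization moved none of these results.

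Same-numbered mice were not treated as paired. Of 12 correlations of their deviations 1 was over 0.1 (range -0.46 to 0.55). How the mice were numbered is not given in the sources used here, and these correlations cannot exclude a pairing. With the replicate block 0 members, 0 biogenesis and 0 mitochondrial genes were called, and 46 of all genes in place of 367.

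Leaving out 1 mouse gave 0 to 1 members higher and 0 to 1 lower in CLP versus sham, medians of -0.02 to 0.10 (small) and -0.06 to 0.03 (large), 0 to 8 translation factors, 0 to 19 biogenesis, 0 to 2 mTORC1 and MYC and 0 to 30 mitochondrial genes. In CLP+DCA versus CLP it gave 0 to 1 members lower and medians of -0.056 to 0.10 and -0.03 to 0.12, and in CLP+DCA versus sham medians of -0.01 to 0.13 and -0.03 to 0.10. The shares ran from 1.40% to 1.48% (sham), 1.26% to 1.34% (CLP) and 1.37% to 1.51% (CLP+DCA). The cause of these changes was not tested. Among these, the highest counts of the 4 lists came without CLP+DCA mouse 3. In CLP+DCA versus sham, 7 members had an unadjusted p under 0.05 without CLP+DCA mouse 4 and 0 with it. Rps27, Rpl30 and Rpl34 had at most 74 reads per mouse, which limits the precision of their values.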
